A study of Mus musculus with 9 samples.

Results

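The 316 peaks described here come from a CTCF ChIP-seq study of female mouse neural stem cells (NSCs). They are the autosomal peaks whose signal was at least 2-fold higher than control in both *Smchd1* mutants. They were chosen by their measured values: among the merged peaks of chromosomes 1 to 19 with a mean over the 3 genotypes of at least -0.5 (log2 reads per M), those with MommeD43-GFP minus Smchd1GFP and Smchd1_del minus Smchd1GFP both at least 1. The table held 225769 merged peaks, of which 217130 lay on autosomes and 107125 reached that mean level. Of these, 0.295% met both conditions, so the signal differences given below describe the choice and support nothing by themselves. Location, length, base composition and motif content were not used to choose the peaks.

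The NSCs were grown as adherent monolayers from cortices of E14.5 embryos on a C57BL/6 background, and 3 genotypes were compared. MommeD43-GFP cells (3 libraries) are homozygous for an *Smchd1* allele that carries both a GFP fusion and, introduced by CRISPR, the alanine to glutamate change of the *MommeD43* strain. Smchd1_del cells (2 libraries) are homozygous null and were made in culture from floxed cells with a Cre and puromycin retrovirus and drug selection. Control cells, Smchd1GFP (3 libraries), are homozygous for the GFP fusion without the mutation, and 1 input library also came from this genotype. The null cells carried no GFP fusion and had been infected and drug selected, so the deletion, the missing tag and the infection cannot be told apart. The cell type rests on its label, since binding data hold no expression markers.

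Each genotype has 1 value per peak, the authors' mean over its libraries of log2 reads per M. No spread between libraries stands behind any value, and no test was made. Decoded from the spacing of the lowest values, geometric mean library sizes were 49.2 M reads in MommeD43-GFP, 49.98 M in Smchd1_del and 41.7 M in Smchd1GFP cells. At the 316 peaks the median number of reads per library was 58.7 in MommeD43-GFP, 82.8 in Smchd1_del and 20.4 in Smchd1GFP cells. Errors marked as counting errors below cover only the sampling of these reads.

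CTCF is a zinc finger protein that binds a long, well-conserved DNA motif, blocks the extrusion of chromatin loops by cohesin and thereby marks insulators and the borders of domains. SMCHD1 is a non-canonical SMC protein that takes part in silencing of the inactive X chromosome and of clustered autosomal genes. In *Smchd1*-null cells the inactive X is known to gain CTCF binding and shorter-range contacts. Both mutants were set against the same control here, so the pair of differences at a peak shares its control value.

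The sequences below show copies of the CTCF motif in some of the raised peaks, with the bases around them. The printed copies lay 5 to 162 bases from the peak centre. These peaks were picked for holding a motif, which some of the leading peaks lacked. Each run is 60 bases of GRCm38 read 5′ to 3′ on the strand of the motif, with the 12 bases that match the CTCF motif in capitals. In the first set are the 4 peaks with a core CTCF motif and the largest differences in both mutants, numbered by position with their strand in brackets.
*Gm13346* intron, chr2:19683072-19683131 (+): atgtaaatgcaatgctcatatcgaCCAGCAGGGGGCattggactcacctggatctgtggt
near *4930579K19Rik*, chr9:98535928-98535987 (+): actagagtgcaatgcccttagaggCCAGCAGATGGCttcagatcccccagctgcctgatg
chromosome 6 intergenic, chr6:104028626-104028685 (+): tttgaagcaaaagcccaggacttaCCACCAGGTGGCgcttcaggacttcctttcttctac
*Pard3b* intron, chr1:61771401-61771460 (-): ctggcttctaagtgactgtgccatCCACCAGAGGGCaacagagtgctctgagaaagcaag

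The second set comes from the core motif peaks with the highest mean signal outside the first set. The peak near *Gm28594*, whose motif lay 266 bases from the peak centre, is not shown.
*Ghr* intron, chr15:3441709-3441768 (+): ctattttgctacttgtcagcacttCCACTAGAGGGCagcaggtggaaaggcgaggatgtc
near *Neil3*, chr8:53664125-53664184 (-): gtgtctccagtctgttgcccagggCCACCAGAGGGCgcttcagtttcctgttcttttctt
near *Gm47622*, chr10:53115217-53115276 (+): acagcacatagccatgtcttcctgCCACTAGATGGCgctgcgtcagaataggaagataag
near *Tnip3*, chr6:65510451-65510510 (+): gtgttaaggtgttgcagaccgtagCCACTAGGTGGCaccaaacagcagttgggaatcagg

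The third set holds only a relaxed form of the motif, in which 3 inner bases are free, at the peaks of this kind with the largest differences. The *Mllt3* and *Spon1* windows share the letters CCAGAAGAGGGC followed within 10 bases by CAGAT.
*Mllt3* intron, chr4:88022779-88022838 (-): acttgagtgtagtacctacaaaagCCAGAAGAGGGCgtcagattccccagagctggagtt
*Net1* intron, chr13:3897090-3897149 (-): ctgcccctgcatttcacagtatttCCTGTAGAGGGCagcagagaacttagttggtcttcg
*Spon1* intron, chr7:113898562-113898621 (-): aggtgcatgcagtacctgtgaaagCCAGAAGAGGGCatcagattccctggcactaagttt

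The core motif lay in 60 of the 316 peaks (18.99%, exact binomial 95% interval 14.8 to 23.8%) and the relaxed form in 164 (51.9%, 46.2 to 57.5%). Over all 107125 peaks at this level the shares were 7.47% and 31.0%. The core motif was as frequent at the 1153 peaks raised in the null only (221, or 19.2%) and was present in 8% of the 100 raised in MommeD43-GFP only. The relaxed form was present in 44.6% and 49% of these sets. Here "only" means that the other mutant stayed below the 2-fold limit. The null only peaks had a median difference of 0.63 in MommeD43-GFP cells, with 98.0% above 0. The MommeD43-GFP only peaks had one of 0.72 in Smchd1_del cells, with 94% above 0. Over all peaks at this level 49.99% were above 0 in MommeD43-GFP and 45.8% in Smchd1_del cells. Both differences at a peak share its control value. Choosing peaks on either mutant favours low control values, which also raises the other difference. These shares therefore cannot show that the mutants agree. Of the 316, the remaining 152 peaks held neither form within the merged interval, which says only that these letters are not there. The intervals treat peaks as independent, and base composition moved with the motif shares, as described further on.

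Signal at the 316 peaks was low in control cells. Peaks were called per genotype and merged, so a raised peak need not have been called in control cells. The signal was not set against the input library, so these values do not show how much CTCF was bound. The MommeD43-GFP values ran from -0.48 through a median of 0.25 to 2.04, the Smchd1_del values from -0.27 through 0.73 to 2.08, and the Smchd1GFP values from -2.45 through -1.03 to 0.94. Control lay below 0 at 295 of the 316 peaks, and below the control median of all peaks at this level (0.43) at 311. In MommeD43-GFP cells 114 of the 316 rose above that same control median, and in Smchd1_del cells 227 did. The peaks were thus mostly weak in control, which the rule favours by asking for a control value at least 1 below both mutants. Their medians in the mutants lay on either side of the control median of all peaks. In bulk chromatin, more cells with CTCF at a site and more CTCF per cell cannot be told apart.

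**Figure D1:**
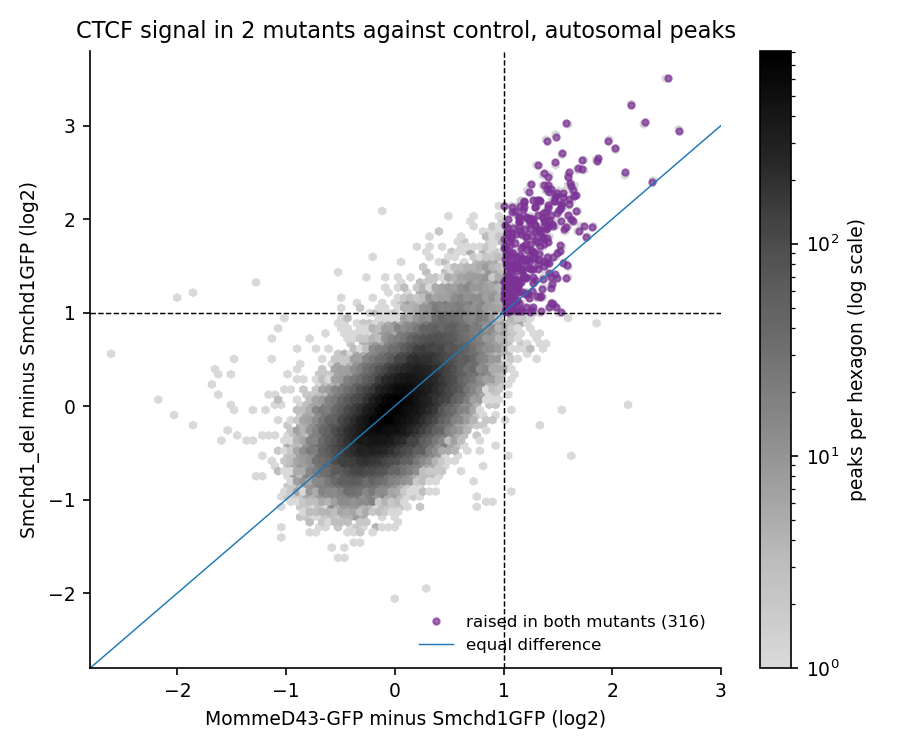
Difference in CTCF signal from control at each autosomal peak with a mean level of at least -0.5, in MommeD43-GFP (x axis, log2) and in Smchd1_del NSCs (y axis, log2), with grey hexagons for the number of peaks and purple points for the 316 raised in both. Most purple points lie above the blue line of equal difference (274 of 316), and the dashed lines mark the 2-fold limits that chose them.

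The difference from control had a median of 1.22 in MommeD43-GFP cells (2.33-fold, quartiles 1.08 to 1.41, highest 2.61) and of 1.62 in Smchd1_del cells (3.08-fold, quartiles 1.31 to 2.00, highest 3.504). Over all peaks at this level the medians were 0.00 and -0.04. Most members stood close to the limit in the point mutant, where 204 were below 2.5-fold. In the null 79 reached 4-fold, against 7 in MommeD43-GFP cells. All 316 kept both differences above 0 once 2 counting errors were taken off. The limit of 1 made this almost certain, since the median counting errors were 0.21 in MommeD43-GFP and 0.22 in Smchd1_del cells. After the same step 58 kept both differences at least 1.

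The largest rises shared by both mutants were at short, AT-rich peaks away from promoters. In an intron of *Gm13346*, a long non-coding RNA gene, the signal was 0.28 in MommeD43-GFP, 0.61 in Smchd1_del and -2.33 in Smchd1GFP cells, a difference of 2.61 ± 0.31 in the point mutant (counting error). The peak near *4930579K19Rik*, a non-coding transcript, was at 0.58 in MommeD43-GFP, 0.60 in Smchd1_del and -1.79 in Smchd1GFP cells, and here the mutants differed by less than their counting error. In an intron of *Mllt3*, which encodes a chromatin reader of the super elongation complex, the values were 1.14 in MommeD43-GFP, 1.52 in Smchd1_del and -0.98 in Smchd1GFP cells. *Mllt3* was the strongest of the 12 leading peaks in both mutants.

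*Net1*, an exchange factor for RhoA, was at 0.48 in MommeD43-GFP, 1.35 in Smchd1_del and -1.48 in Smchd1GFP cells at an intronic peak. *Pard3b*, a cell polarity gene, was at 0.16 in MommeD43-GFP, 0.95 in Smchd1_del and -1.71 in Smchd1GFP cells. *Spon1*, which encodes the extracellular matrix protein F-spondin, was at 0.32 in MommeD43-GFP, 0.42 in Smchd1_del and -1.49 in Smchd1GFP cells. The peak in the UTR of *Edem3* (chr1:151820251-151821000), a gene of the endoplasmic reticulum degradation pathway, was at 0.11 in MommeD43-GFP, 1.16 in Smchd1_del and -2.06 in Smchd1GFP cells, and held neither form of the motif. The remaining 5 of the 12 were an intron of *4931428L18Rik*, the neighbourhood of the keratin-associated gene *Krtap19-1*, and intergenic peaks on chromosomes 2, 3 and 6. In every one of the 12 the null value was the highest, and the control value was the lowest, as the rule requires.

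**Figure D2:**
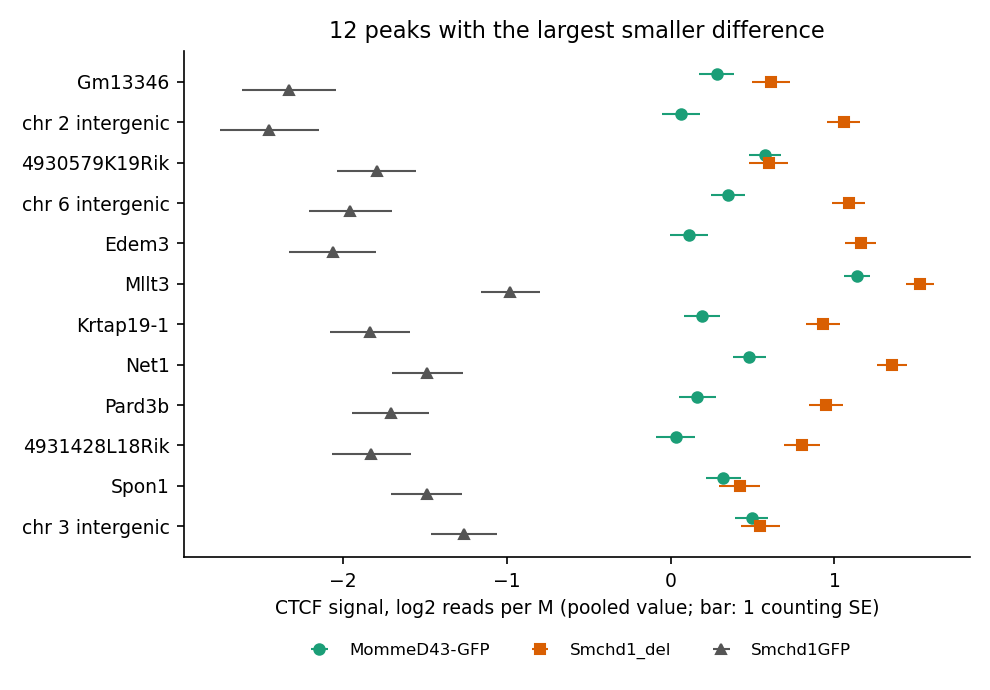
CTCF signal (x axis, log2 reads per M) at the 12 peaks with the largest smaller difference from control (y axis, by gene or chromosome), with circles for MommeD43-GFP, squares for Smchd1_del and triangles for Smchd1GFP. Bars are 1 counting error of the pooled value, and all 12 triangles lie below -0.9 while all circles and squares lie above 0.

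The highest mean signals among the 316 were at less extreme differences. An intronic peak of *Npas3* (chr12:53991601-53993700), a bHLH-PAS transcription factor gene, was at 2.04 in MommeD43-GFP, 2.08 in Smchd1_del and 0.94 in Smchd1GFP cells, and at 2100 bases it was also the longest. The peak near *Mrpl16*, a mitochondrial ribosomal protein gene, was at 1.59 in MommeD43-GFP, 2.06 in Smchd1_del and 0.46 in Smchd1GFP cells. *Ghr*, which encodes the growth hormone receptor, was at 1.63 in MommeD43-GFP, 2.00 in Smchd1_del and 0.45 in Smchd1GFP cells at the peak whose sequence is printed above. The peak near the chemokine receptor gene *Ackr1* was at 1.64 in MommeD43-GFP, 1.97 in Smchd1_del and 0.22 in Smchd1GFP cells. An intergenic peak (chr3:16465951-16467000) completed the 5, at 1.496 in MommeD43-GFP, 1.62 in Smchd1_del and 0.44 in Smchd1GFP cells.

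The null was the higher of the mutants at most of these peaks. Smchd1_del minus MommeD43-GFP had a median of 0.38 (95% order-statistic interval over peaks 0.33 to 0.45, quartiles 0.15 to 0.70, range -0.52 to 1.45), and 274 of the 316 peaks (86.7%, 82.5 to 90.3%) were higher in Smchd1_del. The difference was above 0 by more than 2 counting errors at 185 peaks and below 0 by as much at 5. Of all 107125 peaks at this level, 16867 were above and 17612 below by as much, so passing this mark was common in both directions. The intervals treat peaks as independent and hold no spread between libraries. Over all peaks at this level the median was -0.02, with 46.6% higher in Smchd1_del. On the log2 scale the rise in the point mutant was a median of 75.7% of that in the null (quartiles 66.4 to 89.2%). The order is partly set by the choice of peaks, because 1.37% of all peaks at this level reached 2-fold in the null and 0.388% in MommeD43-GFP cells, so the limit in the point mutant was the harder to reach.

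The gap between the mutants was widest in an intron of *Psd3* (chr8:67916851-67917750), an exchange factor for a small GTPase, where the signal was 1.08 in Smchd1_del, -0.37 in MommeD43-GFP and -1.95 in Smchd1GFP cells (Smchd1_del minus MommeD43-GFP 1.45 ± 0.17, counting error). An intronic peak of *Cntnap5a* (chr1:116477401-116478450), a neurexin family gene, was at 1.40 in Smchd1_del, 0.23 in MommeD43-GFP and -1.30 in Smchd1GFP cells. The other 4 widest gaps were at *Gm18349* (1.43), *Gm15939* (1.40), *Gm22434* (1.26) and *Gm28928* (1.14), all non-coding genes or pseudogenes. At the opposite end, MommeD43-GFP was higher at an intronic peak of *Larp4b* (chr13:9161251-9162600), an RNA-binding protein gene, with -0.27 in Smchd1_del, 0.25 in MommeD43-GFP and -1.28 in Smchd1GFP cells (-0.52 ± 0.19). The UTR peaks of *Fam189a1* (-0.43) and *Rtkn2* (-0.35), introns of the lincRNA *AC166902.1* (-0.36) and of the netrin receptor gene *Neo1* (-0.32), and an intergenic peak on chromosome 17 (-0.34) followed. Gaps in favour of MommeD43-GFP were thus much smaller than the gap at *Psd3*.

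Among the raised peaks, the median difference in MommeD43-GFP cells was similar with and without the motif. The limit that chose the peaks holds these medians close to it, so they cannot show whether the rise depends on the motif. With a core motif the median difference from control was 1.22 in MommeD43-GFP and 1.77 in Smchd1_del cells. With the relaxed form alone it was 1.21 in MommeD43-GFP and 1.47 in Smchd1_del cells, and with neither form 1.23 in MommeD43-GFP and 1.68 in Smchd1_del cells. Control signal was also similar, with medians of -0.92, -1.09 and -1.06 for the 3 groups in this order.

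Base composition set these peaks apart from most others. Their median GC content was 39.9% (quartiles 37.7 to 41.9%), against 48.2% over all peaks at this level (46.0 to 50.2%), 42.2% at the 1153 peaks raised in the null only and 42.8% at the 100 raised in MommeD43-GFP only. GC content was under 44% in 282 of the 316 peaks (89.2%), against 12.5% of all peaks at this level. CpG sites numbered 6.67 per kb at the median, against 12 per kb.

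The signal differences themselves moved with GC content across all peaks. Among the 76524 peaks within the length range (750 to 2100 bases) and level range of the 316, those under 36% GC had median differences from control of 0.40 in MommeD43-GFP and 0.48 in Smchd1_del cells, and those at 52% or more had medians of -0.15 in MommeD43-GFP and -0.17 in Smchd1_del cells. The share raised in both mutants was 10.8% under 36% GC, 6.02% at 36 to 40%, 1.40% at 40 to 44%, 0.114% at 44 to 48% and 0.00928% at 48 to 52%. None of the 5784 peaks at 52% or more met the rule, which allows a share of up to 0.0519%. When each difference was centred within 20 bins of GC content, 158 peaks met the rule, of which 157 were among the 316, and the median of Smchd1_del minus MommeD43-GFP became 0.50. Of the 316, 49.7% therefore remained. The part that GC content plays in the rise was otherwise not tested.

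**Figure D3:**
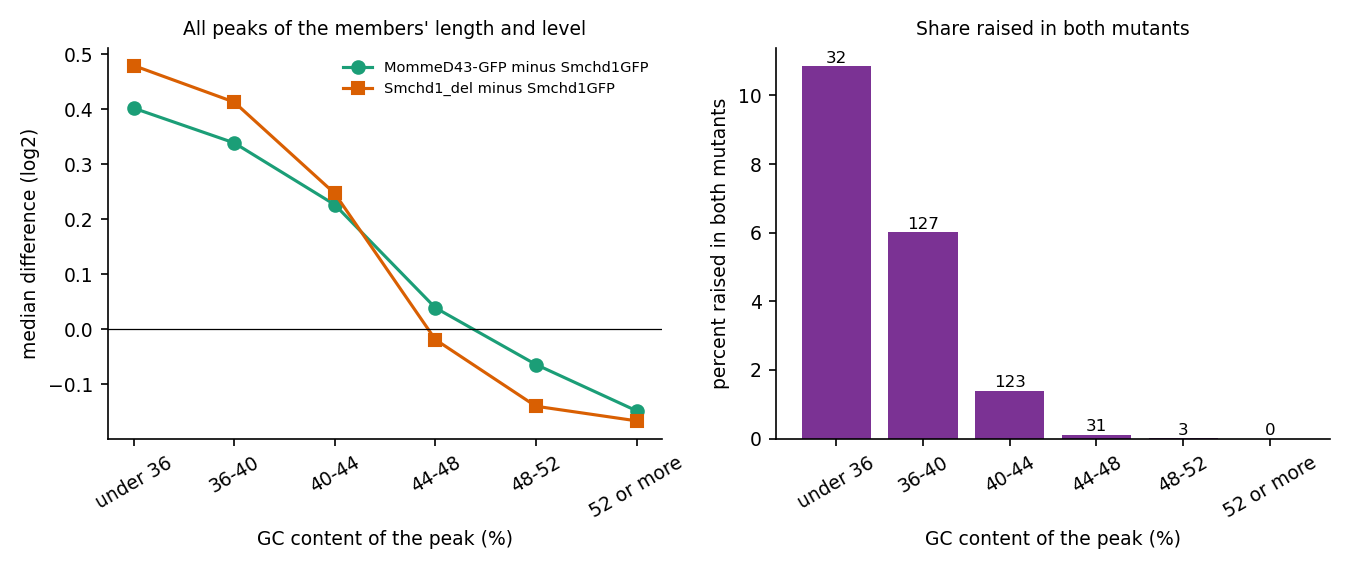
Left, the median difference from control (y axis, log2) by GC content of the peak (x axis, %) over 76524 autosomal peaks of the same length and level range, for MommeD43-GFP (circles) and Smchd1_del (squares). Right, the percentage of these peaks raised in both mutants, with their number above each bar. Both medians fall as GC content rises, and 282 of the 316 raised peaks lie under 44% GC.

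The motif shares were therefore also set beside the 15032 other peaks within the same length and level ranges and between the 5th and 95th percentiles of GC content of the 316 (35.1 to 45.0%). Their median GC content was 42.9%, still above the 39.9% of the 316, so GC content was limited to a range and not matched. There the core motif was present in 8.10%, against 18.99% of the 316, and the relaxed form in 49.2%, against 51.9%. In the central 300 bases the core motif was present in 41 of the 316 (13.0%, 9.47 to 17.2%) and in 4.02% of the others, and the relaxed form in 113 (35.8%, 30.5 to 41.3%) and 26.2%. Of these others, 979 had a control value at or below the upper quartile of the 316 (-0.60). In their central 300 bases the core motif was present in 4.49% and the relaxed form in 32.1%. The share of the relaxed form lay inside the interval of the raised peaks, and that of the core motif below it. By bins of GC content, the core motif was present in 12.5% of the 32 raised peaks under 36%, against 12.5% of all peaks in the bin. It was present in 21.3% of the 127 raised peaks at 36 to 40% GC, against 13.4%, in 17.9% of the 123 at 40 to 44%, against 8.76%, and in 22.6% of the 31 at 44 to 48%, against 2.57%. Within this GC range the relaxed form was thus about as frequent in the 316 as in other peaks, and the interval of the core motif lay above the share in other peaks, while the lowest GC bin showed no difference. These comparisons are descriptions, with no test.

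The median distance from the peak centre was 93 bases for the 61 core motifs and 88 bases for the 177 relaxed motifs. In the other peaks of the same length, level and GC range it was 146.5 and 148 bases. Within 150 bases of the centre lay 67.2% of the relaxed motifs of the 316 and 50.6% of those of the other peaks. For relaxed motifs of peaks raised in MommeD43-GFP only the median distance was 74 bases and 68.6% lay within 150 bases, and for those raised in the null only it was 139 bases and 53.0%. These sets differed in length. The median was 900 bases in the 316, 1050 in the other peaks, 1050 in MommeD43-GFP only and 1200 in null only peaks. A motif placed anywhere lies nearer the centre of a shorter peak. Distances were not compared at equal length, so they cannot show that motifs of the raised peaks are more central.

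Many copies of the CTCF motif in the mouse genome lie in interspersed repeats of the SINE B2 family, which spread in rodents. The genome sequence used marks repeats in lower case without naming the family. Of the 164 raised peaks with a relaxed motif, the copy nearest the centre lay wholly in such repeats in 77 (47.0%, 39.1 to 54.9%), against 71.4% of the 7391 other peaks of the same length, level and GC range that held one. The letters CAGAT followed within 10 bases in 39 (23.8%, 17.5 to 31.0%), against 39.6%. Over all peaks at this level that held a relaxed motif, 48.9% had it in repeats and 26.3% had the letters CAGAT. The interval of the raised peaks lay below the share of the peaks of the same length, level and GC range for both measures, and held the share of all peaks at this level for both. Peaks raised in the null only had a lower share still (24.1% in repeats), and those raised in MommeD43-GFP only had one like that of the peaks of the same length, level and GC range (71.4% of 49).

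The gap between the mutants differed in size with the repeat, and Smchd1_del had the higher median in both groups. At the 77 raised peaks whose motif lay in a repeat the medians were 0.46 in Smchd1_del, 0.22 in MommeD43-GFP and -1.07 in Smchd1GFP cells. At the 87 with a motif outside repeats they were 0.88 in Smchd1_del, 0.37 in MommeD43-GFP and -0.93 in Smchd1GFP cells. The median of Smchd1_del minus MommeD43-GFP was 0.19 with the motif in a repeat and 0.52 outside. This split was chosen after the sequences had been seen and was not tested.

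Short motifs of other factors showed no such excess in the central 300 bases, searched on both strands. The AP-1 letters TGANTCA were present in 10.8% of the 316 (7.57 to 14.7%) and 8.72% of all peaks at this level, the Sox letters ACAATGG in 4.11% and 4.08%, and the NFI half-site TTGGCA in 14.9% and 15.9%. The E-box CAGCTG was present in 9.81% (6.76 to 13.6%), against 18.5% of all peaks at this level and 13.6% of those of the same length, level and GC range.

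The raised peaks were short beside all peaks at this level, but not beside other peaks of low control signal. Their median length was 900 bases (quartiles 900 to 1050, range 750 to 2100), against 1350 bases over all peaks at this level (900 to 2100), 1200 at peaks raised in the null only and 1050 at those raised in MommeD43-GFP only. All lengths in the table are multiples of 150 bases. The shortest length among the 316, 750 bases, was that of 74 peaks, and 241 (76.3%) measured 750 to 1050 bases, against 38.5% of all peaks at this level. Behind *Npas3*, the longest were an exonic peak of the apolipoprotein gene *Apob* at 1800 bases, an exonic peak of the kinase gene *Pak7* at 1650 bases and 15 peaks of 1500 bases. The values are not divided by length, so a peak of higher signal tends to be longer. Among peaks up to the highest mean level of the 316, the median length was 1050 bases. Another 979 peaks shared the length, level and GC range of the 316 and had a control value at or below their upper quartile. The median length of these other peaks was also 900 bases (quartiles 750 to 900), so shortness was not particular to the raised peaks.

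**Figure D4:**
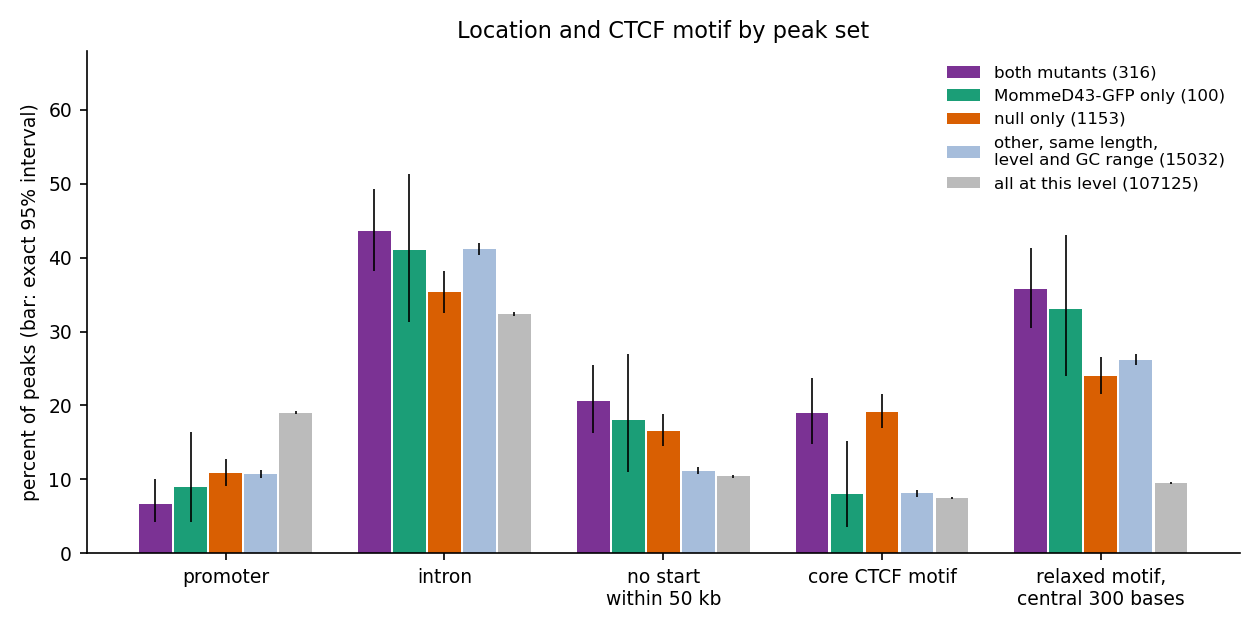
Percentage of peaks (y axis) at promoters, in introns, with no transcription start within 50 kb, with a core CTCF motif and with a relaxed motif in the central 300 bases (x axis), for the 316 raised peaks and 4 other sets, with exact 95% intervals. The raised peaks have a core motif in 18.99% and lie at promoters in 6.65%, against 8.10% and 10.7% for other peaks of the same length, level and GC range.

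Few of the raised peaks lay at promoters. A transcription start lay within 1 kb of 21 peaks (6.65%, 4.16 to 9.98%), while 163 (51.6%) lay in gene bodies and 132 (41.8%) between genes. Over all peaks at this level promoters held 19.01%, gene bodies 47.2% and intergenic sequence 33.8%. Within the same length, level and GC range the promoter share was 10.7%, just above the interval of the raised peaks, and at the 979 of those peaks whose control value was at or below the upper quartile of the 316 (-0.60) it was 8.99%, inside it. Promoters held 9% of the peaks raised in MommeD43-GFP only and 10.8% of those raised in the null only. Introns held 138 of the 316 (43.7%), against 32.4% of all peaks at this level and 41.2% of those of the same length, level and GC range. No start lay within 50 kb of 65 peaks (20.6%, 16.2 to 25.5%), against 10.4% of all peaks at this level and 11.2% of those of the same length, level and GC range. The share was 16.1% at the 979 with a low control value, 18% at peaks raised in MommeD43-GFP only and 16.6% at those raised in the null only, the last 2 inside the interval of the raised peaks and the first just below it. The median distance to a start was 13.6 kb, against 8.44 kb over all peaks at this level, and 9 other peaks lay within 50 kb at the median, against 12.

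Of the 21 promoter peaks, 14 took the name of a protein-coding gene. *Sec24c* (chr14:20672401-20673450), which encodes a coat protein of vesicles leaving the endoplasmic reticulum, was at 0.32 in MommeD43-GFP, 0.67 in Smchd1_del and -1.32 in Smchd1GFP cells, 858 bases from its start. *Zfp622*, a factor in ribosome assembly, was at 0.05 in MommeD43-GFP, 0.43 in Smchd1_del and -1.57 in Smchd1GFP cells and held a core motif. *Arpc5* (chr1:152767801-152769300), a subunit of the actin-nucleating Arp2/3 complex, was at 0.70 in MommeD43-GFP, 1.14 in Smchd1_del and -0.90 in Smchd1GFP cells with the peak over its start. *Pum2*, an RNA-binding repressor of translation, was at 0.23 in MommeD43-GFP, 0.94 in Smchd1_del and -1.18 in Smchd1GFP cells. Next by their smaller difference were the clathrin adaptor gene *Ap2b1* (1.27), the calcium-binding protein gene *Calu* (1.27), the super elongation complex scaffold *Aff4* (1.24), the centrosome gene *Cep192* (1.21), the meiotic gene *Hormad2* (1.19) and the sodium channel gene *Scn3a* (1.15).

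Of these, *Hormad2* alone was not higher in the null, with 0.29 in Smchd1_del, 0.30 in MommeD43-GFP and -0.91 in Smchd1GFP cells. The promoter peak of the non-coding *9530018H14Rik*, for which *Hoxa13* is the gene with the nearest protein-coding start, was at -0.23 in MommeD43-GFP, 0.64 in Smchd1_del and -1.65 in Smchd1GFP cells.

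Neurons express many long genes of adhesion and excitability. Genes of 100 kb or more held 98 of the 316 raised peaks (31.0%, 26.0 to 36.4%), about the share of all peaks at this level (29.8%). Of 10 gene lists, that of neuronal adhesion and synapse genes held the most raised peaks, 11 of its 1060 peaks at this level (1.04%, against 0.295% of all). Ion channels and glutamate receptors held 4 of 513 (0.780%), cell cycle and growth control 2 of 297 (0.673%), and Notch, Wnt, Shh, FGF and BMP signalling 2 of 506 (0.395%). The medians over all peaks of these 4 lists were close to those of all peaks. They lay between -0.03 and 0.02 in MommeD43-GFP and between -0.08 and 0.03 in Smchd1_del cells. The raised peaks were thus a small part of lists whose medians stood near control. Of the 11 in the adhesion list, 4 lay in 1 gene, *Csmd1*, whose 30 peaks had median differences of 0.22 in both mutants. None of the 279 peaks of neural stem cell regulators was raised in both mutants, which allows a share of up to 1.08%. The same held for 204 peaks of imprinted genes (up to 1.47%), 195 of chromatin and CTCF-cohesin genes (up to 1.54%), 133 of neuronal markers (up to 2.26%), 60 of astrocyte and oligodendrocyte markers (up to 5%) and 35 of Hox genes (up to 8.57%). At the background share each of these 6 lists would hold fewer than 1 raised peak.

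Within the adhesion list, an intergenic peak whose nearest start, 32.2 kb away, was that of the neurexin family gene *Cntnap2* was at 0.31 in MommeD43-GFP, 1.22 in Smchd1_del and -1.41 in Smchd1GFP cells. *Csmd1*, a very long gene for a membrane protein with complement control domains, held 4 raised peaks among its 30 at this level. They were at 0.06 to 0.83 in MommeD43-GFP, 0.12 to 0.83 in Smchd1_del and -0.95 to -0.20 in Smchd1GFP cells, all close to the 2-fold limit in MommeD43-GFP (differences of 1.01 to 1.03). The other members of the list were *Lsamp*, *Ntm*, *Ptprd*, *Ctnnd2* and *Slit2*, with *Cntnap5a* as described above. The members of the signalling list were a pair of type I BMP receptor genes. *Bmpr1a* (chr14:34427701-34428900) was at 0.25 in MommeD43-GFP, 0.46 in Smchd1_del and -1.27 in Smchd1GFP cells in an intron, and *Bmpr1b* at -0.19 in MommeD43-GFP, 0.73 in Smchd1_del and -1.59 in Smchd1GFP cells in a UTR.

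Among ion channels, the intronic peak of the calcium release channel gene *Ryr2* was at 0.03 in MommeD43-GFP, 0.03 in Smchd1_del and -1.10 in Smchd1GFP cells. That of the AMPA receptor gene *Gria1* was at -0.31 in MommeD43-GFP, 0.25 in Smchd1_del and -1.35 in Smchd1GFP cells. The mutants were thus equal at *Ryr2*, and Smchd1_del was higher by 0.56 at *Gria1*.

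Most of the raised peaks had no other raised peak nearby, but how many would by chance was not tested. The counts therefore do not show that raised peaks stand alone. Of the 316, 301 had no other raised peak within 100 kb, and the remaining 15 formed 8 pairs of neighbours, among them those of *Csmd1*, *Ghr*, *Cps1* and *Cacul1*. The pair in *Cacul1*, whose product binds the kinase CDK2, lay 9 kb apart with no peak between. Its members were at 0.26 and 0.46 in MommeD43-GFP, 0.37 and 1.27 in Smchd1_del and -1.16 and -0.75 in Smchd1GFP cells. In *Cps1*, which encodes an enzyme of the urea cycle, the pair was at -0.20 and 0.30 in MommeD43-GFP, 0.53 and 1.05 in Smchd1_del and -1.66 and -0.76 in Smchd1GFP cells. *Ghr* held a second raised peak at -0.22 in MommeD43-GFP, 0.66 in Smchd1_del and -1.55 in Smchd1GFP cells. In all, 278 peaks had a gene name and belonged to 272 genes, of which only these 4 held more than 1. Over all peaks of *Cps1* at this level, the median differences were 0.69 in MommeD43-GFP and 0.89 in Smchd1_del cells. They were lower in *Csmd1* (0.22 and 0.22), *Ghr* (0.07 and 0.26) and *Cacul1* (0.02 and 0.30), in the same order.

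At the first peaks on either side, which lay 6.83 kb and 7.35 kb away at the median, the median differences from control were 0.05 and 0.11 in MommeD43-GFP cells and 0.00 and 0.06 in Smchd1_del cells. Out to the fifth peak on each side, about 50 kb away, the medians stayed between -0.03 and 0.11 in MommeD43-GFP and between -0.05 and 0.06 in Smchd1_del cells. The medians at neighbouring peaks were thus near 0. Of the first neighbours, 2.22 to 2.86% reached 2-fold over control in MommeD43-GFP and 4.76 to 6.67% in Smchd1_del cells. These neighbours include weaker peaks below the mean level of -0.5, where counting error is larger, and over the 217130 autosomal peaks of any level the shares were 2.06% in MommeD43-GFP and 3.18% in Smchd1_del cells.

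**Figure D5:**
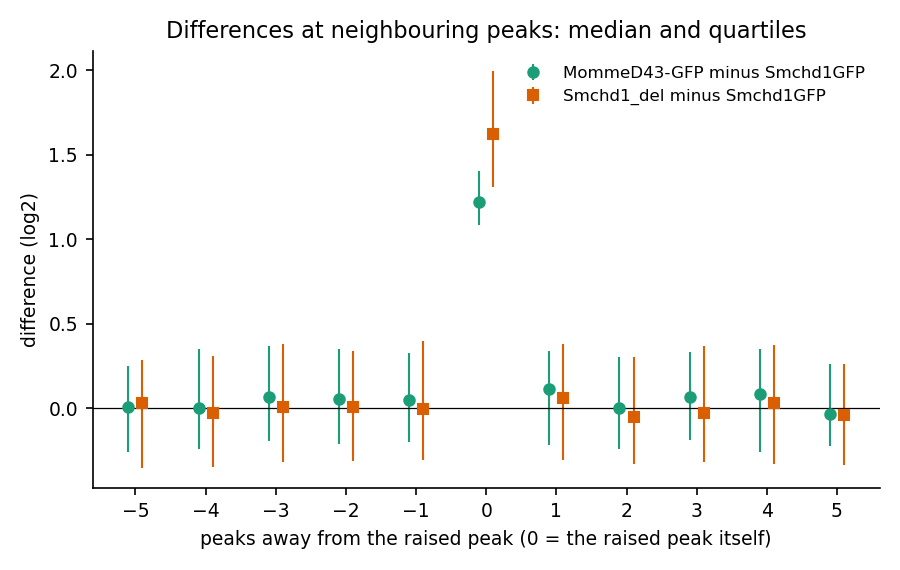
Difference from control (y axis, log2) at the raised peaks (0 on the x axis) and at the 5 nearest peaks on each side (x axis, in peaks), as medians with quartiles for MommeD43-GFP (circles) and Smchd1_del (squares). Raised peaks have medians of 1.22 in MommeD43-GFP and 1.62 in Smchd1_del, and the neighbours have medians between -0.05 and 0.11.

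All 19 autosomes carried raised peaks, between 10 on chromosome 16 and 35 on chromosome 1. As a share of the peaks at this level they ranged from 0.148% on chromosome 5 to 0.472% on chromosome 1. Chromosome 19 followed with 13 peaks (0.445%).

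The limits of the rule cut through a continuous range. Just inside the limit in MommeD43-GFP lay peaks at *Slc7a6* and *Stim1* and an intergenic peak on chromosome 16 (differences of 1.001 to 1.003), and just outside lay peaks at *Trim38*, *Gm5407* and *Mapre2* (0.9998 to 0.9997). Just inside the limit in Smchd1_del lay *Adgrg6*, *Gm22973* and *Larp4b* (1.01 each), and just outside lay *Lclat1* (0.99), *4930594O21Rik* (0.98) and *Ptprm* (0.98). Around the mean level of -0.5, *Gm6689*, *Pik3cb* and an intergenic peak on chromosome 3 lay just inside (mean levels of -0.4985 to -0.4961), and *Creb5*, *Gm8304* and *Scarb2* just outside (-0.5038 to -0.5046). Within 0.05 of the limit in MommeD43-GFP lay 54 peaks inside and 66 outside, and within 0.05 of that in Smchd1_del 17 inside and 9 outside.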

How the data were processed

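The authors trimmed reads with Trim Galore 0.4.4 and cutadapt 2.9, mapped them with Bowtie2 2.3.4.1 to GRCm38, extended them by 180 bases, called CTCF peaks in SeqMonk per genotype and merged overlaps. The deposited log2 values are reads per M over each merged peak, averaged by the authors over the libraries of a genotype and not divided by length. The removal of duplicates is not given in the sources used here. The input library was not used.

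Reads were decoded from the steps of the lowest values, in which 0 reads count as 0.9 (all low values gave whole products within 1%). Peaks were annotated with GENCODE M21 (promoter within 1 kb of a start, then gene body, then intergenic), taking the overlapped gene or the nearest start within 50 kb. No peak ended beyond its chromosome in the GRCm38 sequence from RefSeq, which supplied all sequences. Named peaks are those with the largest smaller difference, highest level, widest gaps between mutants, extreme lengths, core motifs, promoters of coding genes, listed genes, genes with several raised peaks and those nearest the limits. Named peaks of one gene list are not reported here. The members and gene lists were chosen with earlier results of these data known. The rule was tested on simulated data with counting error only and rises of 3-fold or 4-fold, equal in both mutants. The simulation held no spread between libraries and no trend with GC content, so it says little about members near the 2-fold limit. Python 3.11.15, pandas 2.3.3 and scipy 1.17.1 were used.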

Additional observations from a re-analysis of the deposited data

How the results depend on the processing

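The 316 peaks depended on where the limits were set. The count was 2094 at 1.5-fold, 30 at 3-fold and 7 at 4-fold, and the median of Smchd1_del minus MommeD43-GFP was then 0.19, 0.64 and 0.74. With the mean level at -1 it was 612 (median 0.30) and at 0 it was 141. Adding 0.1, 0.5 or 1 RPM before the log2 left 195, 23 and 1 peaks, with medians of 0.32 and 0.28 at the larger additions, since control values were low. Asking that both differences stay at least 1 after 2 counting errors left 58 (median 0.59). Centring within 20 bins of GC content left 158 (median 0.50), and centring within such bins among peaks at this level alone, an alternative chosen after seeing the data, left 132, of which 129 were among the 316. Other scalings, the X chromosome added and chromosomes 1, 2 and 6 left out in turn gave 281 to 354 peaks. Smchd1_del minus MommeD43-GFP stayed above 0 at the median in each of these alternatives. The cause of these shifts was not tested beyond what each limit does by construction. No paired analysis was possible because the columns are pooled over the libraries of a genotype, and no library could be left out for the same reason. Median length was 750 to 1050 bases and median GC content 37.3 to 42.3% over the alternatives. The promoter share was 4.11% within 500 bases of a start, 12.3% within 2 kb and 4.11% for protein-coding starts. At about 20 control reads per library, small differences at weak peaks cannot be resolved.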
